A study of Mus musculus with 27 samples.

Results

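Collagen chains were followed across the developing and adult mouse esophagus. Every gene whose array name had the form Col, a number, the letter a and a number was a member, which gave 42 genes with 85 probes of the 28442 genes on the array. The chains were read in 27 arrays, 3 biological replicates in each of 9 groups, with the sample labeled in Cy5 and a common reference, RNA of 11 mouse cell lines, in Cy3. The labels put every group on a C57BL/6J background, and the mice were bred in-house and were genotyped by PCR. The younger wild-type (WT) groups were whole esophagus of embryos at E11.5 and at E15.5, of newborns at P0 and of pups at P7. The WT group at 8 weeks was labeled esophageal epithelium. The mutant groups were whole esophagus of Nrf2-/-, Keap1-/- and Nrf2-/-Keap1-/- mice at P7 and epithelium of Nrf2-/- mice at 8 weeks, all lacking the gene in the whole body. Values are log2 ratios of sample to reference, averaged over the probes of a gene, so a value compares 1 gene between arrays and does not rank genes by abundance. A gene is called higher or lower at an adjusted p of 0.05 or less in limma. The limma p-values rest on the spread between the 3 arrays within each group, pooled over the groups of a fit and moderated across genes. Those of pair differences come from regrouping 6 against 6 arrays, which pool genotypes or stages.

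Collagens are secreted or membrane-bound proteins in which chains wind into a triple helix. Fibrillar chains build the banded fibers of connective tissue and are made mainly by fibroblasts, while fibril-associated (FACIT) chains sit on the surface of those fibers. Type IV chains form the sheet of the basement membrane under epithelium and around muscle and vessels, and types XV and XVIII join that zone to the tissue around it. Type VII collagen forms the anchoring fibrils, and type XVII collagen is a transmembrane part of the hemidesmosome, the junction that holds basal keratinocytes of a stratified epithelium to the basement membrane. Nrf2 is a transcription factor of the oxidative stress response, and Keap1 is the adaptor that has it degraded. The members comprised 11 fibrillar chains, 9 FACIT chains, 8 basement membrane chains, 5 chains of the type VI microfibrils, 3 chains of types VIII and X, 4 transmembrane or other chains, and the epithelial anchoring chains Col7a1 and Col17a1.

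RefSeq (assembly GRCm38.p6) gave a promoter for 34 of the 42 members. The 250 bases before the annotated start are shown for both anchoring chains, which stood apart from the fibrillar chains, and for Col4a5 and Col4a6, the basement membrane pair that was lower in Keap1-/- esophagus. Capitals mark matches on either strand to TATAAA (the TATA box), to CCAAT (the CCAAT box), to GGGCGG (the GC box) and to TGACNNNGC (the core of the antioxidant response element, to which Nrf2 binds). No match of TGANTCA, the AP-1 motif, lay in these windows.
Col17a1 (chr19:47692043-47692292, minus strand): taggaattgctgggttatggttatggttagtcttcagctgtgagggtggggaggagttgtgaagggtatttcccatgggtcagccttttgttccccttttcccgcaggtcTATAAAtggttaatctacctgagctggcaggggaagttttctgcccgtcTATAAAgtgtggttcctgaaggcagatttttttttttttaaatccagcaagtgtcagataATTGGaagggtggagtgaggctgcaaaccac
Col7a1 (chr9:108953336-108953585, plus strand): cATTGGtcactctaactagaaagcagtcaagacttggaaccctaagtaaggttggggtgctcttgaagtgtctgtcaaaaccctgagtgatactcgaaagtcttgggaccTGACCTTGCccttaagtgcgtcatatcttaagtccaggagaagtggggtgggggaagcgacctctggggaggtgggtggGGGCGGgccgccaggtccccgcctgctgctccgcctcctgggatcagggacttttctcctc
Col4a5 (chrX:141475169-141475418, plus strand): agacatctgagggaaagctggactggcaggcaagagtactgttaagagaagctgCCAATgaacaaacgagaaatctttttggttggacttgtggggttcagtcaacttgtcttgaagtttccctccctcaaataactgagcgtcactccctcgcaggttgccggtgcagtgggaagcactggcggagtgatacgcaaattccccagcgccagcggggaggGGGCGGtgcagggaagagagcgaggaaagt
Col4a6 (chrX:141474077-141474326, minus strand): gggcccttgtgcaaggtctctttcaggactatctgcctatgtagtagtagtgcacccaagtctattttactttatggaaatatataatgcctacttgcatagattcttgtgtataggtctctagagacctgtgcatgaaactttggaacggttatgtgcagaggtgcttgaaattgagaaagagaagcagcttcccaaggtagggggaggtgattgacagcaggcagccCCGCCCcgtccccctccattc
Of 32851 promoters, 12.4% held TATAAA, 33.8% CCAAT, 32.7% GGGCGG, 10.2% TGACNNNGC and 6.75% TGANTCA in the same 250 bases. The Col17a1 window held TATAAA at 140 and at 91 bases before the start. The Col7a1 window held the letters TGACCTTGC at 140 bases before the start. The starts of Col4a5 and Col4a6 lay 1343 bases apart on opposite strands of the X chromosome. The matches describe letters, and no binding was measured.

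The median Cy5 intensity of an array was 81.8 to 226, and 58.9% to 69.3% of its spots were well above background. The Nrf2 gene, Nfe2l2, read -0.29, -0.01 and -0.52 in WT at P7 against -3.22, -3.37 and -3.17 in Nrf2-/- and -3.32, -3.14 and -3.36 in Nrf2-/-Keap1-/- esophagus, and the groups did not overlap. Keap1 read 0.54, 1.00 and 0.42 in WT, -0.50, -0.32 and -0.19 in Nrf2-/-Keap1-/- and -0.27, 0.22 and 0.64 in Keap1-/- esophagus, so the Keap1-/- arrays overlapped WT. Whether the Keap1 probe lies in the deleted part is not given in the sources used here. Among the embryonic arrays, the library labeled E11.5 replicate 3 correlated across genes at 0.974 and 0.97 with E15.5 replicates 2 and 3 and at 0.826 and 0.768 with E11.5 replicates 1 and 2. The library labeled E15.5 replicate 1 correlated at 0.951 and 0.917 with E11.5 replicates 1 and 2 and at 0.799 and 0.809 with the other E15.5 arrays. Both kept their labels, and the counts of called members that rest on them are given with and without them.

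From whole esophagus at P7 to adult epithelium in WT mice, 33 of the 37 members tested were lower and 0 were higher. Of all genes tested in this comparison, 42.8% were called in either direction and 22.8% were called lower. The median change of the members was -1.31 on the log2 scale, against 0.01 over all genes, and the arrays of both groups did not overlap for 34 members, beside 55.8% of all genes. All 11 fibrillar chains (median -1.34), all 7 tested basement membrane chains (median -2.18), 7 of 8 FACIT chains, 3 of 4 type VI chains, both type VIII chains and all 3 transmembrane chains tested were lower. Neither anchoring chain was called. The P7 tissue was the whole organ and the adult tissue was epithelium, so age and dissection cannot be told apart. In these bulk samples, fewer cells of a type and less RNA per cell cannot be told apart.

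Col1a1, the main chain of type I collagen, read 1.34, 1.97 and 1.65 at P7 and -1.19, -1.84 and -1.61 in adults. Every adult array lay below every P7 array, and the change was -3.20 (SE 0.22, adjusted p = 5.9e-05), which is 9.2-fold lower. Col5a2, a type V chain that sits within type I fibrils, read 1.19, 0.93 and 1.60 at P7 and -2.0, -2.44 and -2.89 in adults. Its change of -3.69 (SE 0.26, adjusted p = 6.5e-05), or 12.9-fold, rests on 1 probe and was the largest fall when probes of a gene were averaged, although single probes of Col1a1, Col3a1 and Col5a1 fell further, at -4.21, -3.97 and -3.86. Col3a1, the type III chain of elastic soft tissue, read 1.41, 1.66 and 1.77 at P7 and -0.52, -0.64 and -0.47 in adults. Its change was -2.15 (SE 0.14, adjusted p = 4.3e-05). Col1a2, the partner of Col1a1 in type I collagen, read 0.31, 0.50 and 0.42 at P7 and -1.0, -1.58 and -1.72 in adults, again with no overlap. The FACIT chain Col14a1 read 3.37, 3.58 and 3.44 at P7 and 1.80, 2.00 and 1.61 in adults, a change of -1.66 (SE 0.14, adjusted p = 0.00015). The probes of several of these genes differed in size of change, although not in direction. Col1a1 probes changed by -4.21 to -2.10, those of Col1a2 by -3.39 to -0.29, and those of Col14a1 by -3.30 to -0.02. With the brightest probe of each gene, all 11 fibrillar chains were again called lower, with a median of -3.39.

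Basement membrane chains fell over a similar range. Col4a1, which with Col4a2 forms the common type IV network, read 2.22, 1.74 and 2.42 at P7 and -1.09, -1.06 and -1.02 in adults. The adult arrays lay close together and well below P7, at a change of -3.19 (SE 0.18, adjusted p = 2.8e-05). Col4a2 read 1.92, 1.05 and 1.93 at P7 and -0.71, -0.81 and -1.21 in adults, a change of -2.55 (SE 0.26, adjusted p = 0.00033). Col18a1, the heparan sulfate proteoglycan from which endostatin is cleaved, read 0.94, 0.97 and 1.1 at P7 and -1.80, -1.76 and -1.59 in adults. Its change was -2.72 (SE 0.12, adjusted p = 1.0e-05). The X-linked Col4a5 read 1.51, 1.35 and 1.82 at P7 and -0.45, -0.68 and -0.74 in adults (-2.18, SE 0.16, adjusted p = 7.8e-05). Its neighbor Col4a6 read 1.54, 1.56 and 1.83 at P7 and 0.52, 0.57 and 0.56 in adults (-1.09, SE 0.13, adjusted p = 0.00056). Both X-linked chains were lower in every adult array. Col4a4 changed by -0.42 (adjusted p = 0.048), the smallest fall called, and its brightest probe was not called, at 0.31.

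Neither anchoring chain passed the threshold. Col17a1 read 4.68, 5.36 and 5.09 at P7 and 5.33, 5.47 and 5.17 in adults. These arrays overlapped, and the change of 0.28 had an interval of -0.10 to 0.65 (95% normal interval, adjusted p = 0.27). Col7a1 read 2.44, 3.75 and 3.06 at P7 and 2.28, 1.90 and 2.87 in adults, which also overlapped (-0.73, interval -1.44 to -0.03, adjusted p = 0.14). In Nrf2-/- mice Col17a1 read 4.83, 5.05 and 5.08 at P7 and 4.90, 4.76 and 4.98 in adults, which overlapped. Col7a1 in Nrf2-/- mice read 3.12, 3.00 and 3.02 at P7 and 2.53, 2.17 and 2.30 in adults, so every adult array lay below every P7 array (-0.71, interval -1.30 to -0.12, adjusted p = 0.064).

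**Figure D1:**
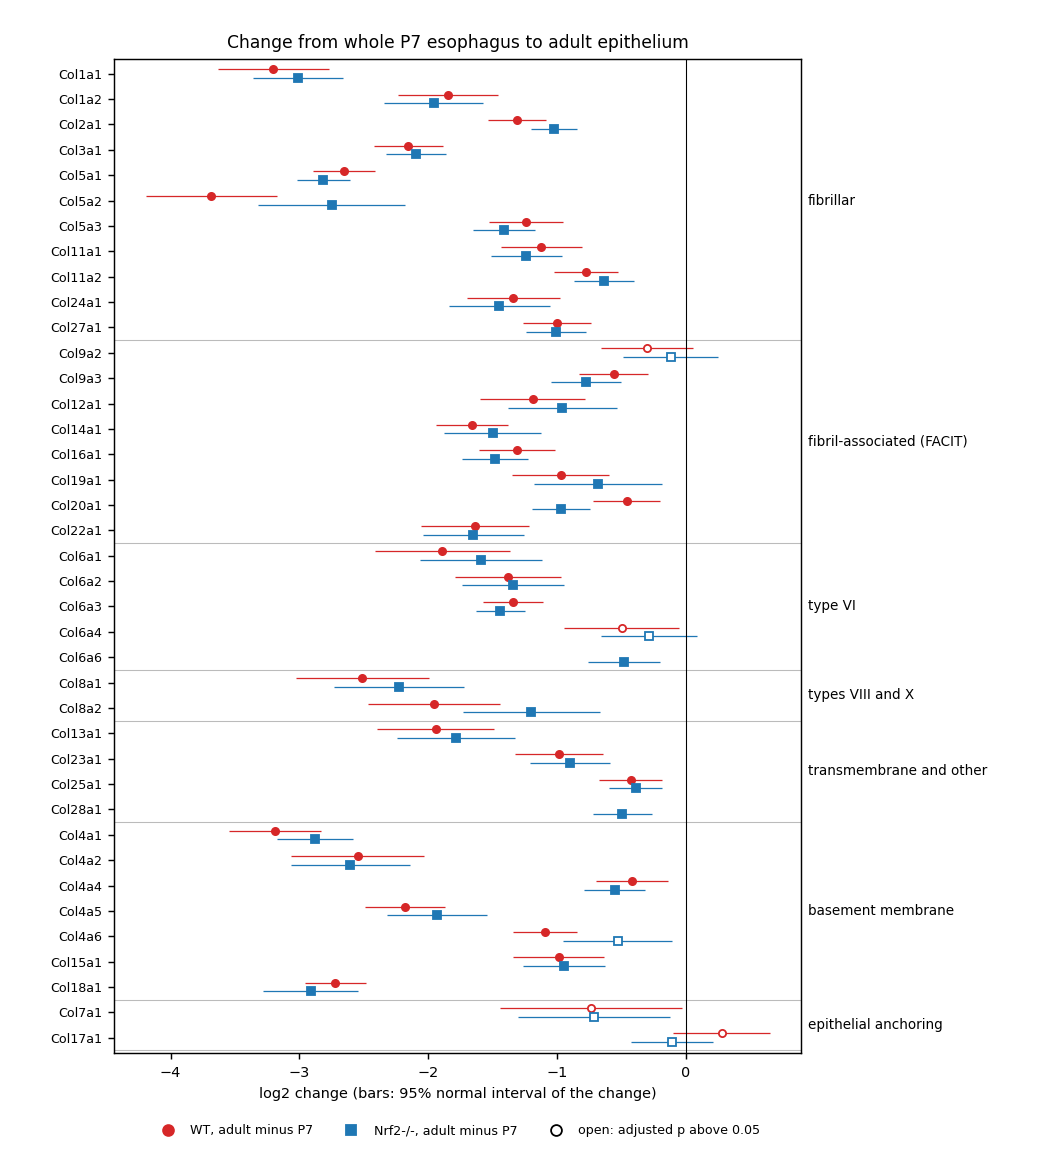
Log2 change of each tested chain from whole P7 esophagus to adult epithelium (x axis), grouped by class, in WT (red circles) and Nrf2-/- mice (blue squares); bars are 95% intervals and open symbols have an adjusted p above 0.05. Col5a2 in WT lies farthest left at -3.69, and Col17a1 in WT is the only point right of 0, at 0.28.

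The same comparison in Nrf2-/- mice called 34 of 39 members lower and 0 higher, where 54.9% of all genes were called in either direction and 27.9% were lower. Both ages did not overlap for 36 members, beside 65.1% of all genes, and the median of the members was -1.24. All 11 fibrillar chains and 6 of 7 basement membrane chains were lower. Among the latter, Col4a4 was called lower at -0.55 as the average of 2 probes that changed by -1.65 and 0.55, and with its brightest probe it was called higher (adjusted p = 0.0079). No Nrf2-/- adult array shared a scan day with a P7 array. With scan day as a block in the fit of both genotypes 24 members were lower and 0 higher. There 5811 of 19555 genes were called, 2788 of them higher. In that fit the scan day of Nrf2-/- adult replicates 1 and 2 was set from WT adult replicate 3 alone. Nrf2-/- adult replicate 3 was the only array of its day and carried no weight. Col1a1 fell by 3.01 (SE 0.18, adjusted p = 3.1e-07), from 1.85, 1.71 and 1.64 to -1.28, -1.27 and -1.29. Col4a1 fell by 2.88 (SE 0.15, adjusted p = 1.3e-07), from 2.36, 2.24 and 2.18 to -0.55, -0.61 and -0.70. Col18a1 fell by 2.91 (SE 0.19, adjusted p = 5.2e-07), from 0.97, 1.03 and 1.80 to -1.68, -1.54 and -1.72. In all 3 chains each adult array lay below each P7 array. Col4a6 changed by -0.53 (adjusted p = 0.056) and Col17a1 by -0.11 (adjusted p = 0.6). The difference between the changes of Nrf2-/- and WT mice, tested as an interaction in limma, was called for 0 of 39 members and 0.0869% of all genes. An unadjusted p of 0.05 or less was found for 3 members, beside 2171 of 19555 genes.

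Whether the chains of 4 pairs changed unequally was tested within arrays, over the 6 P7 and the 6 adult arrays of WT and Nrf2-/- mice, as the difference of a pair of log2 ratios. Col17a1 minus Col1a1 rose from 3.32 ± 0.17 at P7 to 6.51 ± 0.47 in adults (SD, n = 6; exact two-sided permutation test, adjusted p = 0.00346). Col7a1 minus Col1a1 rose from 1.37 ± 0.23 to 3.76 ± 0.38 (exact permutation test, adjusted p = 0.00346). In neither pair did the P7 and adult arrays overlap. Col4a5 minus Col4a1 rose by 0.97 (exact permutation test, adjusted p = 0.00346), so that the X-linked chain fell less than Col4a1. Col4a1 minus Col1a1 was 0.50 ± 0.39 at P7 and 0.58 ± 0.24 in adults (SD, n = 6; exact permutation test, adjusted p = 0.777), with overlapping arrays. Adjustment was over 8 tests, 4 pairs in 2 comparisons, and the smallest unadjusted p that 924 regroupings allow is 0.00216.

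**Figure D2:**
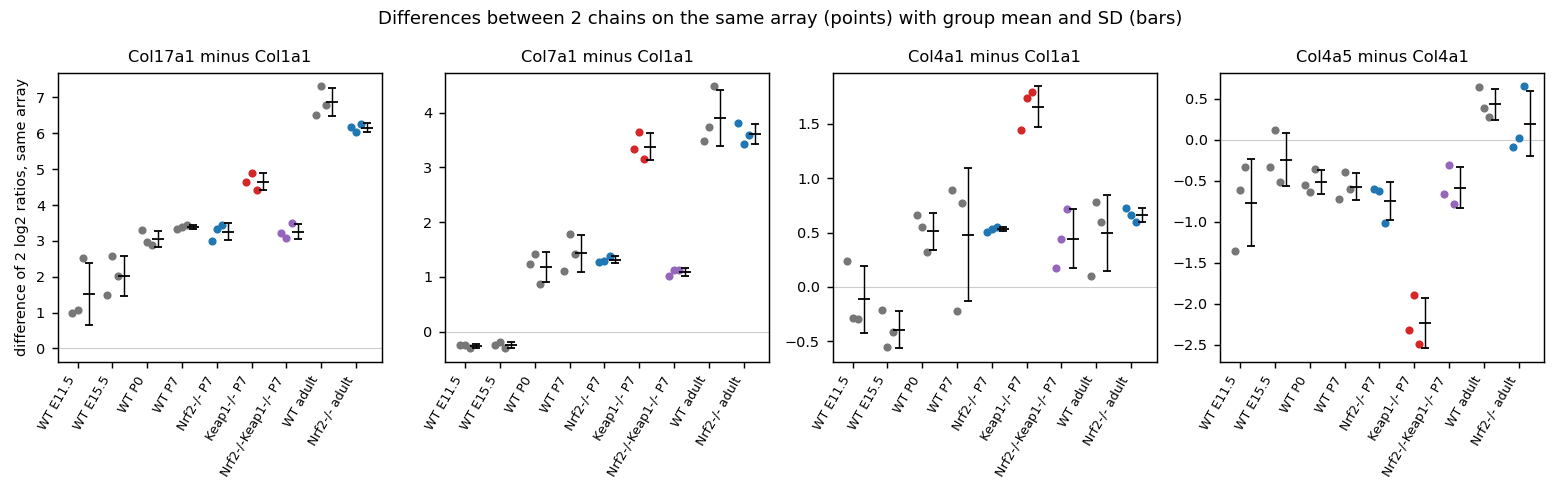
Difference of the log2 ratios of a pair of chains within each array, 1 panel per pair, with arrays as points by group and bars for the mean and SD. Col17a1 minus Col1a1 rises to 7.31 in an adult array from at most 3.45 in WT and Nrf2-/- mice at P7, whereas Col4a1 minus Col1a1 overlaps between these P7 arrays and the adults.

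Genes that make, process and bind collagen were counted over the same WT comparison, where 22.8% of all genes were called lower and 42.8% in either direction. All 8 basement membrane partners were lower, led by Nid2, a nidogen that links laminin to type IV collagen (-4.11). All 6 fibril-associated genes were lower, led by Lum, a proteoglycan of the fiber surface (-2.78). All 4 tested cross-linking oxidases were lower, led by Loxl1 (-3.18), as were 3 of 5 folding and secretion genes, led by Serpinh1, the collagen chaperone (-2.72). Of 14 genes for prolyl and lysyl modification 6 were lower and 1 was higher, P4hb, a disulfide isomerase that is also a subunit of prolyl hydroxylase (0.94). Lower calls also numbered 4 of 6 for propeptide processing (Pcolce -1.68), 3 of 5 for degradation (Mmp14 -1.28) and 2 of 6 for receptors (Ddr2 -1.34).

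Markers of other cell types moved over the same comparison, where 22.8% of all genes were called lower and 42.8% in either direction. All 5 skeletal muscle markers were lower (median -3.68), as were all 5 endothelial, 4 of 6 fibroblast and 3 of 5 smooth muscle markers. The summed ratio of the skeletal muscle list was 97.6 to 205 at P7 and 6.42 to 17.9 in adults, that of the fibroblast list 20.2 to 22.6 and 8.59 to 11.3, that of the endothelial list 22.9 to 32.3 and 8.93 to 15.1, and that of the smooth muscle list 105 to 156 and 77.3 to 93.4. Every gene of these 4 lists was well above background in WT adults. Of the basal keratinocyte markers 1 of 4 was higher (Trp63, 0.84), as were 2 of 4 suprabasal markers, and 1 of 4 leukocyte markers was lower. Of 5 cartilage markers tested 2 were higher and 1 was lower. In Nrf2-/- mice the summed ratio of the fibroblast list overlapped between ages, at 18.9 to 21.4 at P7 and 16.3 to 25.7 in adults. The mean log2 ratio of the same list did not overlap, at 0.22 to 0.31 at P7 and -0.09 to 0.09 in adults. The summed ratios of the other 3 of these lists were lower in Nrf2-/- adults: skeletal muscle at 175 to 206 and 16.3 to 40.1, endothelium at 35.4 to 42.2 and 14.1 to 14.2. Smooth muscle was at 101 to 122 and 67.3 to 72.4. The part of these cell types in the collagen result was not tested. Within the 1 scan day that held arrays of both ages, the 33 members lower in WT changed by -3.46 to -0.36. That day held every array of the WT comparison except adult replicate 3. The members were called on these same arrays, so their direction there is not a separate check.

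**Figure D3:**
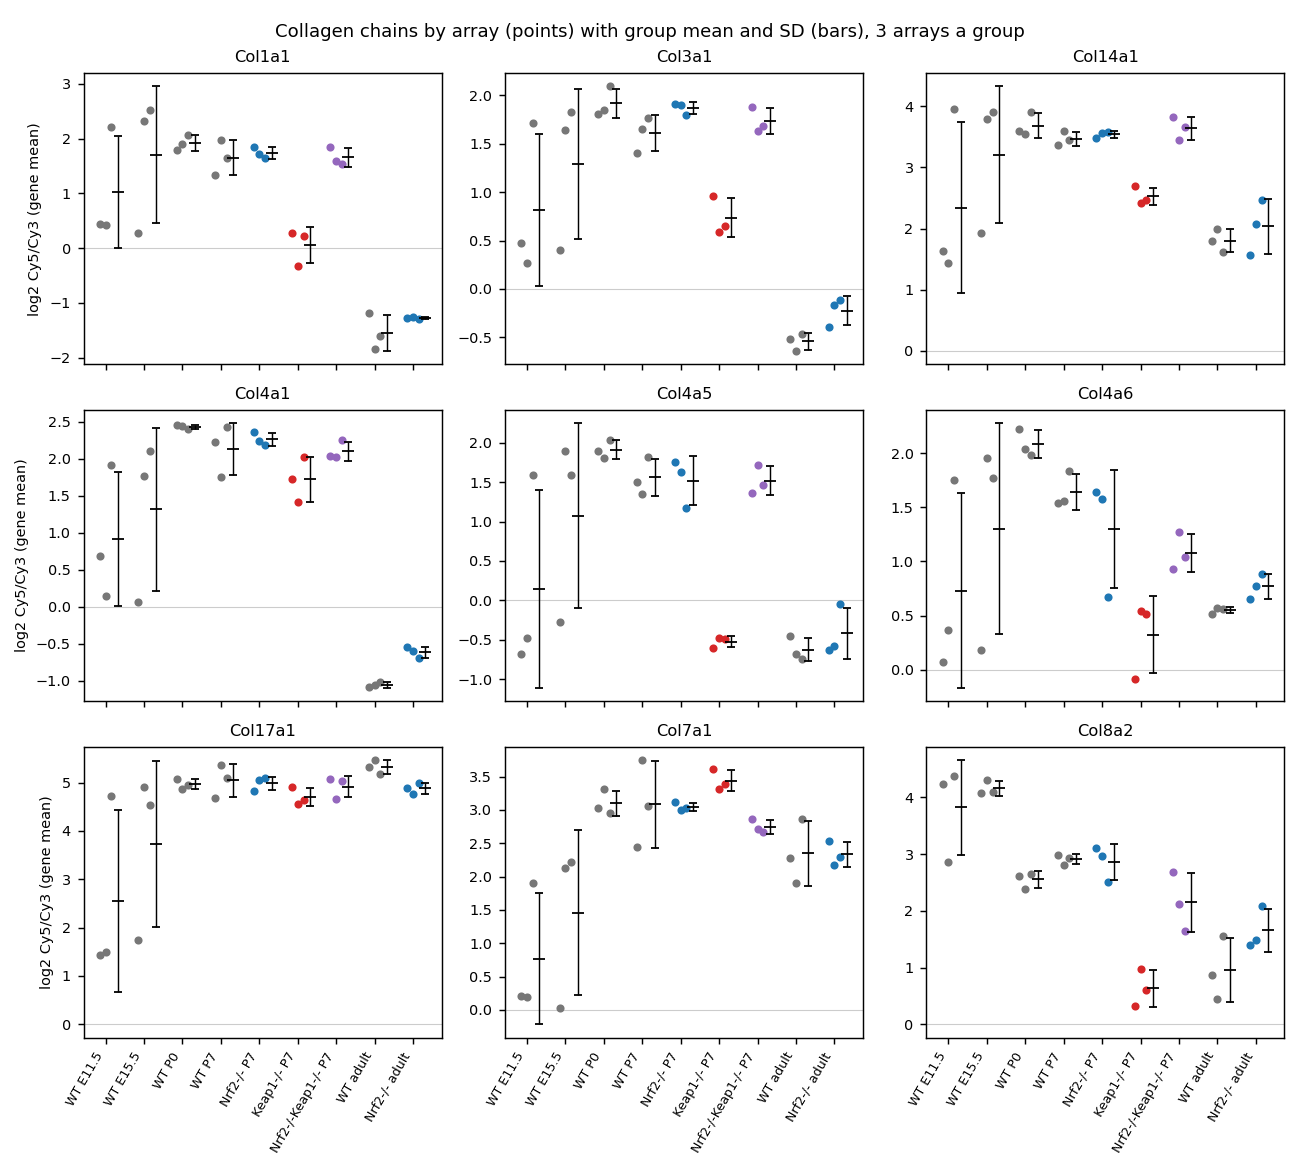
Log2 ratio of sample to reference (y axis) for 9 chains in the 9 groups (x axis); points are arrays and bars are the mean and SD of 3. Col1a1 and Col4a1 are lowest in adults, Col4a5 is also low in Keap1-/- at P7 (-0.60 to -0.48), and Col17a1 stays between 4.56 and 5.47 from P0 on.

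Over WT development, the embryonic arrays (E11.5 and E15.5 together) were compared with the postnatal arrays (P0 and P7 together). The means of this contrast do not depend on which embryonic label an array carries, whereas its standard errors and calls do, since the spread was taken within the labeled stages. Of 39 members tested 10 were higher and 7 lower, where 41.6% of all genes were called, 21.9% higher and 19.7% lower, so the share of members called was near the background. The groups did not overlap for 7 members, beside 23.6% of all genes. Both anchoring chains and 5 of 7 basement membrane chains were higher, whereas 1 of 11 fibrillar chains was higher and 1 was lower. Of the 9 FACIT chains 4 were lower and 1 was higher, and no type VI chain was called. Leaving out 1 array at a time, Col17a1 kept its call in 3 of 12 fits, without E11.5 replicate 3 or E15.5 replicate 2 or 3 (1.37 to 2.41, adjusted p up to 0.093), Col4a2 in 4 of 12 and Col4a1 in 5 of 12, while Col7a1 kept it in all 12. With median centring of the arrays Col17a1, Col4a1, Col4a2 and Col18a1 were not called (1.25, 0.95, 0.59 and 0.11), and with its brightest probe Col4a4 was not.

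Col7a1 read 0.20, 0.19 and 1.90 at E11.5 and 0.03, 2.13 and 2.22 at E15.5, then 3.03, 3.31 and 2.95 at P0 and 2.44, 3.75 and 3.06 at P7. Every postnatal array lay above every embryonic one, at a change of 1.98 (SE 0.44, adjusted p = 0.0046), which is 3.94-fold. Col17a1 read 1.44, 1.49 and 4.72 at E11.5 and 1.75, 4.90 and 4.53 at E15.5, then 5.08, 4.87 and 4.94 at P0. The embryonic arrays fell into a low and a high set that crossed the labels, and the high set overlapped the postnatal arrays (1.87, SE 0.65, adjusted p = 0.04). Col4a1 read 0.68, 0.14 and 1.91 at E11.5, 0.06, 1.77 and 2.11 at E15.5 and 2.45, 2.45 and 2.39 at P0 (1.17, SE 0.37, adjusted p = 0.028). Col4a2 rose by 0.81 (SE 0.28, adjusted p = 0.036). The other basement membrane chains that rose were Col15a1 (0.97), Col4a4 (0.53) and Col18a1 (0.38), and Col4a5 and Col4a6 were not called at 1.13 and 0.84 (adjusted p = 0.061 and 0.07).

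**Figure D4:**
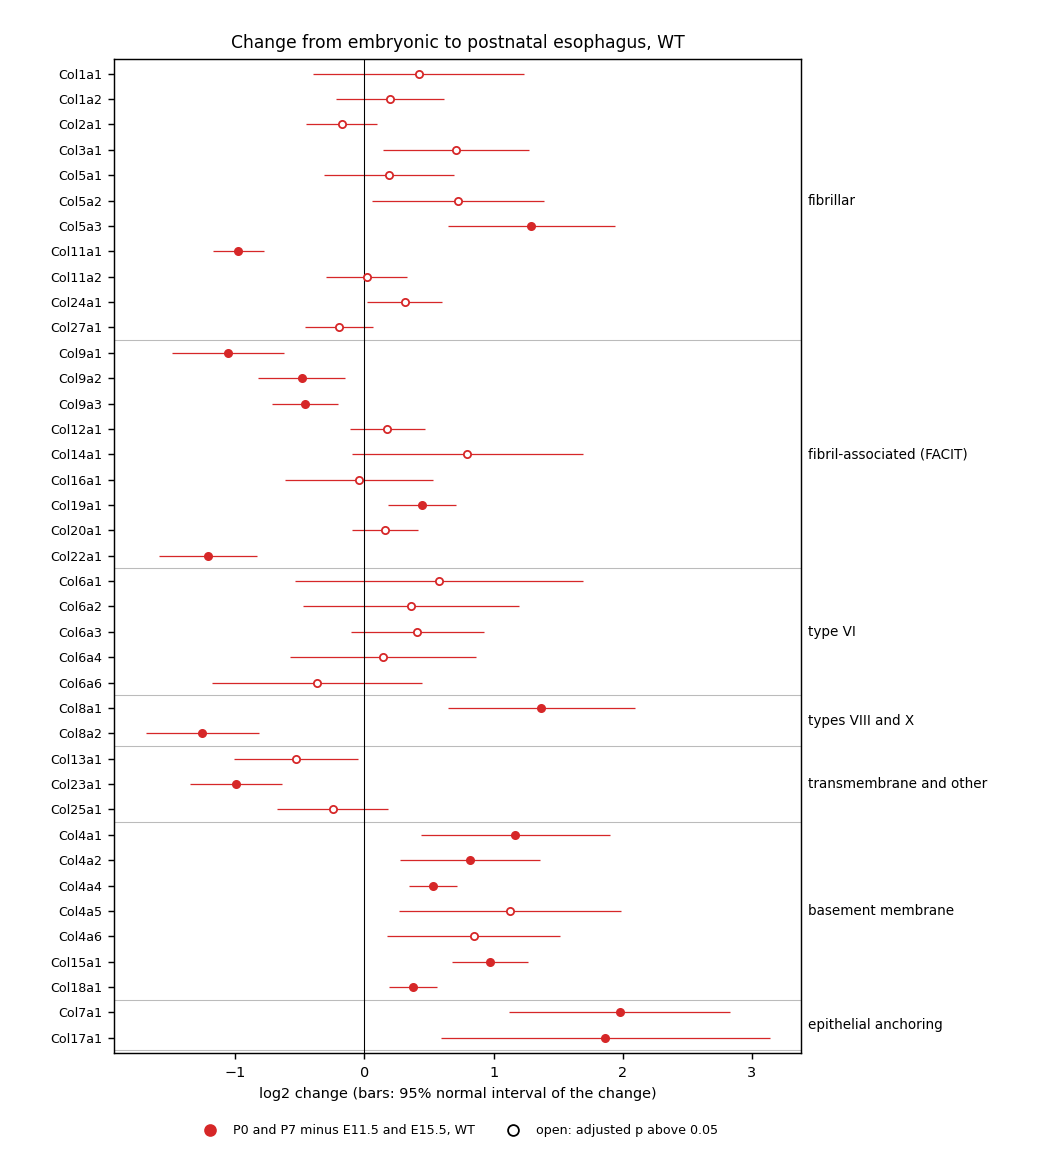
Log2 change of each tested chain from the 6 embryonic to the 6 postnatal WT arrays (x axis), grouped by class; bars are 95% intervals and open points have an adjusted p above 0.05. Both anchoring chains lie near 1.9 to 2.0 (Col17a1 at 1.87, Col7a1 at 1.98), and 9 of the 11 fibrillar chains are open points.

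The fibrillar chains called were Col5a3, a minor type V chain, which rose by 1.29 (SE 0.33, adjusted p = 0.0098), and Col11a1, known from cartilage, which fell by 0.98 (SE 0.10, adjusted p = 5.5e-05). Col11a1 read 1.58 to 1.91 in the 6 embryonic arrays and 0.43 to 0.94 in the 6 postnatal ones. Of its 3 probes 2 were well above background on only 2 arrays each, which lowers the averaged change. Its measured probe averaged 4.42 at E11.5, 4.41 at E15.5, 2.04 at P0 and 2.10 at P7. Col9a1, a FACIT chain of cartilage, read 1.62, 2.21 and 0.64 at E11.5 and 1.1, 0.85 and 0.87 at E15.5, and was not well above background on any P7 array. It was at least 3.13-fold brighter at E11.5 than at P7 (adjusted p = 0.0083), where the dim side was set at the lowest signal measured above background. Col9a2 and Col9a3, its partners in type IX collagen, fell by 0.48 and 0.46. The cartilage markers Matn1, Matn3 and Cnmd were not well above background on any E11.5 or E15.5 array. Of the 6 cartilage markers tested in the same contrast, Sox9, Hapln1 and Matn4 fell by 1.04, 0.64 and 0.51, Comp was higher by 0.44 (adjusted p = 0.033), and Acan and Snorc were not called. Col22a1, known from tissue junctions such as that of muscle and tendon, read 2.00 to 2.91 in embryonic and 0.96 to 1.65 in postnatal arrays (-1.21, SE 0.19, adjusted p = 0.00072). Type VIII chains moved apart: Col8a1 rose by 1.37 and Col8a2 fell by 1.25, and Col8a2 minus Col8a1 ranged from 1.20 to 6.05 over the 27 arrays. Col2a1, the main collagen of cartilage, read 1.76, 0.95 and 1.07 at E11.5, 1.57, 1.21 and 1.19 at E15.5, 1.19, 1.07 and 1.28 at P0 and 1.00, 1.00 and 1.14 at P7, which overlapped. It was not called, and its measured probes changed in opposite directions (-1.42 and 0.74).

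Within arrays, the anchoring chains rose more than Col1a1 from embryonic to postnatal stages. Col17a1 minus Col1a1 rose by 1.45 and Col7a1 minus Col1a1 by 1.56 (exact permutation test, both adjusted p = 0.00346). Col4a1 minus Col1a1 rose by 0.75 (exact permutation test, adjusted p = 0.00865), while Col4a5 minus Col4a1 changed by -0.04 (exact permutation test, adjusted p = 0.829). Keratinocyte markers rose over the contrast too, with 3 of 4 basal and 4 of 4 suprabasal markers higher, as did all 5 skeletal muscle markers (median 3.38). Of all genes in this contrast 21.9% were called higher and 19.7% lower. The summed ratio of the basal list was 13.8 to 36.1 over the embryonic and 37.0 to 50.3 over the postnatal arrays, and that of the suprabasal list 3.34 to 58.4 and 73.4 to 123, and that of the skeletal muscle list 4.79 to 29.0 and 80.0 to 205. Ivl was not well above background on any embryonic array. Among the fibroblast markers 2 of 6 were higher and 2 lower, with a summed ratio of 9.5 to 22.8 and 20.2 to 26.0. Higher markers also numbered 1 of 5 for smooth muscle, 1 of 5 for endothelium and 1 of 4 for leukocytes. The trachea and lung list had a summed ratio of 5.54 to 28.9 at E11.5 and 6.16 to 32.6 at E15.5. At P0 it was 22.2 to 136, and at P7 it was 5.45 to 11.4. At P0 4 of its 5 genes were well above background on every array. Scgb3a2 read 2.26, 5.94 and 6.90 there, Sftpc 2.67, 4.05 and 1.84, Foxj1 3.17, 3.65 and 3.21, and Scgb1a1 0.04, 0.47 and 1.08. The remaining member, Nkx2-1, was not well above background on any of these E11.5, E15.5, P0 and P7 arrays. The part of any of these lists in the collagen result was not tested.

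Between neighboring stages, 8 members were called from E15.5 to P0, 4 higher and 4 lower of 39, where 19.7% of all genes were called, 11.2% higher and 8.42% lower. The stages did not overlap for 18 members, beside 43.9% of all genes. Col8a1 rose by 2.02 (SE 0.52, adjusted p = 0.022), Col15a1 by 0.79, Col18a1 by 0.53 and Col4a4 by 0.51. Col8a2 fell by 1.60 (SE 0.32, adjusted p = 0.0065), from 4.07, 4.31 and 4.09 to 2.62, 2.39 and 2.65, and Col22a1 fell by 1.28, Col23a1 by 1.05 and Col11a1 by 1.00. Col8a1, Col15a1 and Col18a1 each kept their call in 2 of the 6 fits that left out 1 array, and with its brightest probe Col4a4 was not called. Without the libraries labeled E11.5 replicate 3 and E15.5 replicate 1, 3 members were higher and 9 lower, where 19.5% of all genes were called. From P0 to P7 limma called 0 of 39 members, where 2.38% of all genes were called. An unadjusted p of 0.05 or less was found for 4 members, beside 2842 of 19890 genes. Groups did not overlap for 11 members, beside 28.1% of all genes. From E11.5 to P7, 5 were higher and 5 lower of 39, where 30.1% of all genes were called, 16.7% higher and 13.3% lower, and groups did not overlap for 11 members, beside 42.6% of all genes. Col7a1 was higher over this span (2.32, adjusted p = 0.018), a call kept in 3 of the 6 fits that left out 1 array (without E11.5 replicate 3 or P7 replicate 1 or 3, adjusted p up to 0.069). Without the same 2 libraries, 21 members were higher and 4 lower, where 40.4% of all genes were called, with Col17a1 at 3.58 and Col7a1 at 2.89.

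Between the embryonic stages, limma called 0 of 39 members and 0% of all genes. At an unadjusted p of 0.05 or less there were 0 members, beside 313 of 19890 genes. Arrays of both stages did not overlap for 1 member, beside 3.8% of all genes. Without the libraries labeled E11.5 replicate 3 and E15.5 replicate 1, 20 members were higher and 2 lower, where 13.6% of all genes were called. Those libraries were left out for their profile, so these values describe the remaining 2 against 2 arrays. They held Col17a1 at 3.25, Col4a5 at 2.32, Col14a1 at 2.31, Col6a1 at 2.13, Col1a1 at 1.99 and Col7a1 at 1.98 higher at E15.5, and Col8a1 at -1.54 and Col9a1 at -1.05. All 5 type VI chains were among the higher members. Without the same libraries the embryonic to postnatal contrast called 18 members higher and 8 lower, including all 7 basement membrane chains and both anchoring chains as higher, where 44.2% of all genes were called.

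At P7, most fibrillar chains and the X-linked basement membrane chains were lower in Keap1-/- than in WT esophagus. Of 39 members 21 were lower and 2 higher, where 33.5% of all genes were called, 15.4% higher and 18.1% lower. The median change of the members was -0.54, against -0.03 over all genes, and groups did not overlap for 25 members, beside 45% of all genes. The lower members included 9 of 11 fibrillar chains (median -0.64), 3 of 7 basement membrane chains, 3 of 5 type VI chains and both type VIII chains. With the brightest probe of each gene, 9 of 11 fibrillar chains were lower, with a median of -1.395. The Keap1-/- arrays shared neither slide nor scan day with any other group and used, among the P7 arrays, a newer software version that no other genotype had. They had the lowest Cy3 medians of the series (115 to 147), so genotype and these factors cannot be told apart. The count of called members was 14 with outlier-flagged spots left out and 15 with all 27 arrays in 1 fit. In these settings 4849 of 16298 and 5531 of 19223 genes were called.

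Col4a5 read -0.60, -0.48 and -0.48 in Keap1-/- against 1.51, 1.35 and 1.82 in WT, 1.76, 1.62 and 1.17 in Nrf2-/- and 1.37, 1.72 and 1.46 in Nrf2-/-Keap1-/- esophagus. Each Keap1-/- array lay below every other P7 array, and the change from WT was -2.08 (SE 0.17, adjusted p = 9.6e-06), which is 4.23-fold. Col4a6, whose start lies beside that of Col4a5, read -0.09, 0.54 and 0.51 in Keap1-/- and 1.54, 1.56 and 1.83 in WT (-1.32, SE 0.25, adjusted p = 0.0027). Its probes changed by -2.26 to -0.38, and its Nrf2-/-Keap1-/- arrays (0.93, 1.27 and 1.04) lay between both groups. Col4a1 read 1.72, 1.42 and 2.01 in Keap1-/- and overlapped WT (-0.41, interval -0.77 to -0.05, adjusted p = 0.11), and Col4a2 changed by -0.19 (adjusted p = 0.58). Col4a5 minus Col4a1 averaged -2.24 ± 0.31 in Keap1-/-, -0.57 ± 0.17 in WT and -0.58 ± 0.25 in Nrf2-/-Keap1-/- esophagus (SD, n = 3). The test of that difference was not run. Of the remaining basement membrane chains, Col15a1 was lower (-0.46, adjusted p = 0.033), and Col18a1 (-0.39) and Col4a4 were not called.

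The fall in Col8a2, a chain of the type VIII network, was the largest in this contrast when probes of a gene were averaged. It read 0.32, 0.97 and 0.61 in Keap1-/- and 2.99, 2.81 and 2.94 in WT (-2.28, SE 0.25, adjusted p = 9.6e-05), or 4.86-fold lower, with no overlap. Col1a1 read 0.28, -0.32 and 0.22 in Keap1-/- against 1.34, 1.97 and 1.65 in WT (-1.59, SE 0.19, adjusted p = 0.00015). Col5a2 read -0.41, -0.47 and -0.43 against 1.19, 0.93 and 1.60 (-1.68, SE 0.17, adjusted p = 5.8e-05). Every Keap1-/- array lay below every WT array for both fibrillar chains. Col1a2 (-1.34), Col8a1 (-1.38), Col14a1 (-0.94) and Col3a1 (-0.88) were lower as well. The value of Col3a1 includes a dim probe, and its 2 measured probes changed by -1.56 and -1.02. Col6a2 was called at -0.70, but its probes changed by -1.38 and -0.01, and with the brightest probe it was not called. The higher members were the FACIT chains Col22a1 (0.55, adjusted p = 0.04) and Col20a1 (0.38, adjusted p = 0.028). Leaving out 1 array at a time, Col22a1 kept its call in 2 of 6 fits, without WT replicate 3 or Keap1-/- replicate 1 (adjusted p up to 0.141), and Col20a1 in 1 of 6, without WT replicate 2 (adjusted p up to 0.1). With its brightest probe Col22a1 was not called. Neither anchoring chain was called, with Col7a1 at 3.61, 3.32 and 3.38 in Keap1-/- (0.35, interval -0.14 to 0.84) and Col17a1 at 4.91, 4.56 and 4.64 (-0.34, interval -0.69 to 0.01).

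**Figure D5:**
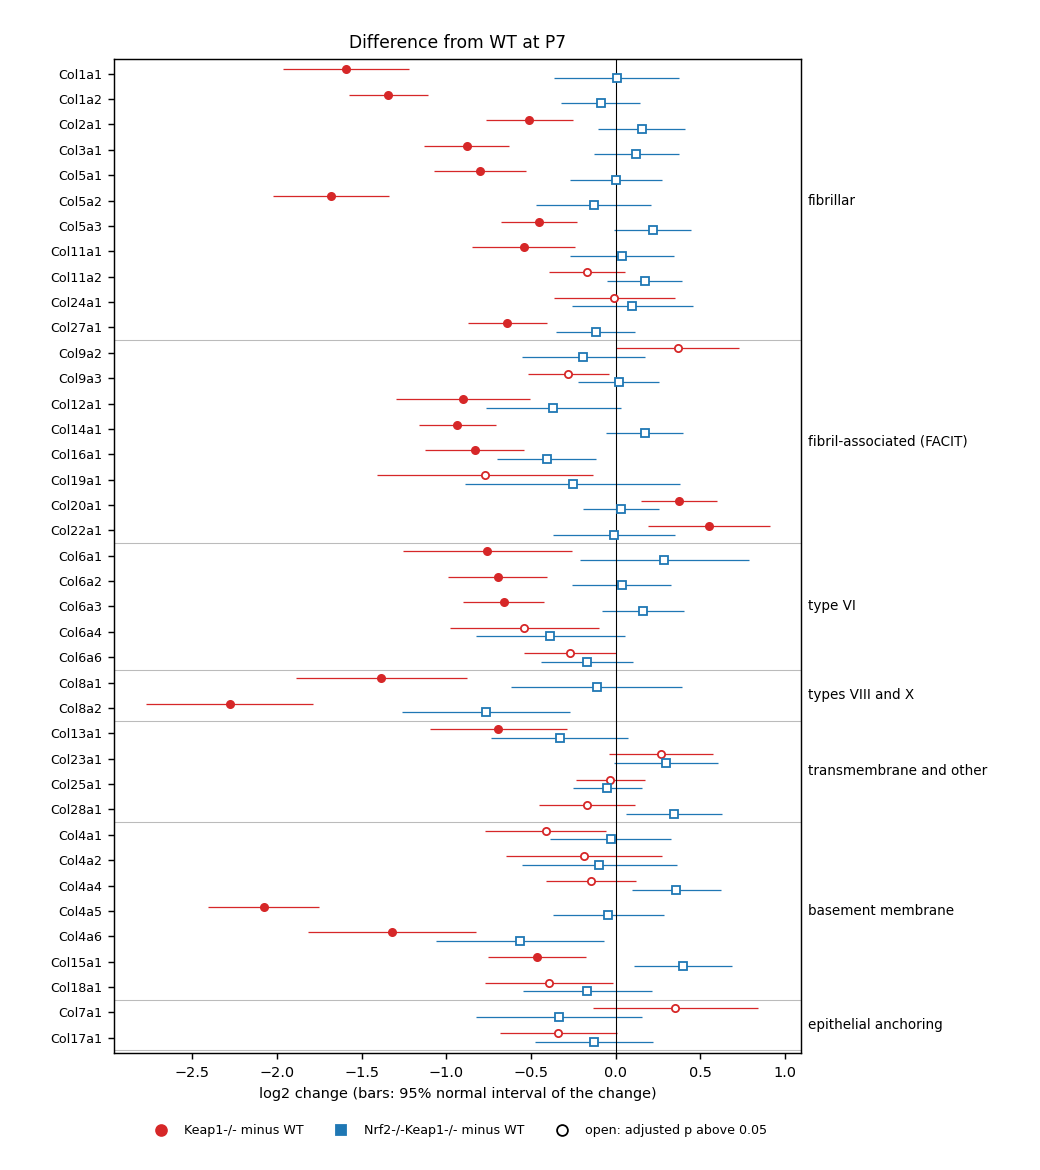
Log2 change of each tested chain at P7 from WT to Keap1-/- (red circles) and from WT to Nrf2-/-Keap1-/- esophagus (blue squares), grouped by class; bars are 95% intervals and open symbols have an adjusted p above 0.05. Col8a2 (-2.28) and Col4a5 (-2.08) lie farthest left in Keap1-/-, and all squares are open.

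Esophagus lacking both genes was compared with the same WT arrays, and limma called 0 of 39 members, where 0.427% of all genes were called. An unadjusted p of 0.05 or less was found for 6 members, beside 3364 of 19223 genes. Groups did not overlap for 5 members, beside 21.7% of all genes. Col1a1 changed by 0.01 (interval -0.36 to 0.38), Col4a5 by -0.04 (interval -0.37 to 0.28) and Col8a2 by -0.76 (interval -1.26 to -0.27, adjusted p = 0.16). Compared directly with Nrf2-/-Keap1-/-, Keap1-/- esophagus had 22 members lower and 3 higher, where 33.4% of all genes were called, 15.2% higher and 18.2% lower. Both genotypes did not overlap for 29 members, beside 48.4% of all genes. Col4a5 differed by -2.04 (SE 0.17, adjusted p = 1.2e-05), Col1a1 by -1.60 (SE 0.19, adjusted p = 0.00015) and Col5a2 by -1.55 (SE 0.17, adjusted p = 0.0001). Col9a2, Col22a1 and Col20a1 were higher, at 0.56, 0.56 and 0.34, calls kept in 1, 2 and 1 of the 6 fits that left out 1 array (adjusted p up to 0.142, 0.134 and 0.132), and Col7a1 was 0.69 higher without being called (adjusted p = 0.056). This comparison and that with WT share the Keap1-/- arrays.

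Of the genes that serve collagen, 3 of 6 fibril-associated genes were lower in Keap1-/- than in WT esophagus, led by Lum (-2.69). The chaperone Serpinh1 fell by 1.67, and 3 of 5 folding and secretion genes were lower and 1 higher. The cross-linking oxidase Lox fell by 1.61, with 2 of 5 oxidases lower. Of 8 basement membrane partners 3 were lower (Nid2 at -1.06) and 1 was higher, Hspg2, the perlecan core protein (0.49). Lower calls numbered 2 of 6 for processing, 2 of 7 for receptors, 3 of 14 for modification with 1 higher, and 3 of 6 for degradation with 1 higher, beside the 18.1% of all genes that were lower and 15.4% that were higher. Among the cell type markers, 4 of 5 for smooth muscle were lower (Tagln -1.69, Cnn1 -1.62, Acta2 -1.12, Myh11 -0.65) and Des was higher (0.76), while 0 of 6 fibroblast markers were called by limma, with 2 at an unadjusted p of 0.05 or less. Of 4 leukocyte markers 3 were lower, Itgam (-1.25), Ptprc (-0.43) and Cd68 (-0.40), and their summed ratio was 2.33 to 2.62 in Keap1-/-, 3.28 to 4.51 in WT and 4.03 to 5.27 in Nrf2-/-Keap1-/- esophagus. Of 6 cartilage markers tested 3 were higher (Sox9 0.95, Comp 0.90, Snorc 0.72), as was 1 marker each of endothelium (Tie1 0.77), basal keratinocytes (Krt14 0.98), skeletal muscle (Acta1 0.95) and trachea and lung (Scgb1a1 0.65), while 1 suprabasal (Ivl -0.97) and 1 bone marker (Runx2 -0.81) were lower. The summed ratio of the smooth muscle list was 71.3 to 84.4 in Keap1-/-, 105 to 156 in WT and 79.2 to 92.4 in Nrf2-/-Keap1-/- esophagus. That of the fibroblast list was 18.2 to 35.7, 20.2 to 22.6 and 17.5 to 20.2. Every gene of the smooth muscle and fibroblast lists was well above background on these arrays, and the part of these cell types in the result was not tested.

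Loss of Nrf2 alone moved no member past the threshold. At P7 limma called 0 of 39 members, where 0.0156% of all genes were called. An unadjusted p of 0.05 or less was found for 3 members, beside 2063 of 19223 genes. Changes ran from -0.34 to 0.43, and groups did not overlap for 5 members, beside 16.4% of all genes. In adult epithelium limma called 0 of 35 members, where 0.423% of all genes were called. An unadjusted p of 0.05 or less was found for 11 members, beside 3074 of 18201 genes. Changes ran from -0.44 to 0.87, with Col5a2 the highest (-2.23, -1.35 and -1.15 in Nrf2-/- against -2.0, -2.44 and -2.89 in WT, adjusted p = 0.24). Groups did not overlap for 11 members, beside 22.5% of all genes. The adult groups also differed in fibroblast markers, with a summed ratio of 8.59 to 11.3 in WT and 16.3 to 25.7 in Nrf2-/- mice. That of the skeletal muscle list was 6.42 to 17.9 and 16.3 to 40.1, and that of the endothelial list 8.93 to 15.1 and 14.1 to 14.2. Smooth muscle read 77.3 to 93.4 and 67.3 to 72.4. The part of these markers in the adult values was not tested. Replicate 3 was the only WT adult array that shared a scan day with Nrf2-/- adults.

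The members that were hard to measure are listed for completeness. Col4a3, a partner of Col4a4 and Col4a5 in a specialized type IV network, and Col10a1, known from growth plate cartilage, were each well above background on 1 of 27 arrays. Col28a1 passed on 6 arrays, Col9a1 on 7 and Col6a6 on 10, and the other members on 19 or more. Col19a1, a FACIT chain, was not well above background on any adult array. By 1 probe it was at least 6.25-fold brighter at P7 in WT and at least 3.56-fold brighter in Nrf2-/- mice. Its other probes were well above background on 0 to 5 arrays. The limma tests used the mean log2 ratio of all 4 probes (adjusted p = 0.0057 in WT and 0.039 in Nrf2-/- mice). Col9a3 was at least 1.53-fold brighter at P7 than in WT adults (adjusted p = 0.013). Chains that assemble together differed in how closely they kept step over the 27 arrays. The difference spanned 1.24 for Col4a2 minus Col4a1, 1.27 for Col6a2 minus Col6a1, 1.84 for Col4a6 minus Col4a5, 1.94 for Col1a2 minus Col1a1, 2.77 for Col9a2 minus Col9a1 and 4.86 for Col8a2 minus Col8a1. That of Col17a1 minus Col1a1, which do not assemble together, spanned 6.31.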

How the data were processed

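Whole esophagus or adult epithelium RNA (Cy5) was hybridized with Universal Mouse Reference RNA (Cy3) on 27 two-color Agilent arrays without dye swaps. The authors deposited, per array, the mean spot intensity and local background intensity of each color, and log10 ratios of Cy5 to Cy3 from Agilent Feature Extraction. The labels name version 9.1 of that software, and the file headers give other versions. Intensities were corrected by normexp (offset 50) and normalized by loess within each array in limma 3.58.1 (R 4.3.3), with control spots at weight 0. Outlier-flagged spots were kept. Spots whose local background exceeded 5 times the median of the array were left out. Spots of a probe, then probes of a gene, were averaged as log2 ratios. A gene was tested if a probe of it exceeded background clearly in Cy5 in 3 or more arrays of the fit and each group held 2 or more values. Fits held the WT stages, WT P7 and adult, WT and Nrf2-/- at both ages, the P7 genotypes, and the adults. Adjusted p-values are from limma (moderated test, Benjamini-Hochberg over all tested genes), except those of pair differences, which are from exact permutation tests. Fold bounds for genes below background use intensities of 1 probe normalized between arrays (Aquantile) and are open to dye bias. The p-values given beside them test log2 ratios and not the bounds. The fits were tested on simulated data. The members, lists and tests were chosen with earlier results of these data known. Array values were given for 12 chains fixed in the design and for up to 3 called members with the largest rise or fall per comparison, and further members were described by class. Alternatives were other background corrections and normalizations, flagged spots left out, the brightest probe, no filter, 1 fit of all arrays, slide, scan day or replicate number as a block, and arrays left out. The number of arrays limits the precision.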

Additional observations from a re-analysis of the deposited data

How the results depend on the processing

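Without the libraries labeled E11.5 replicate 3 and E15.5 replicate 1, the members called numbered 22 between the embryonic stages, 25 over the span from E11.5 to P7, 26 from embryonic to postnatal, 12 from E15.5 to P0 and 2 between P0 and P7. The shares of all genes called, in the same order, were 13.6%, 40.4%, 44.2%, 19.5% and 5.64%. With each spot's own local background the members called numbered 3 from E15.5 to P0, 4 from E11.5 to P7, 1 for the interaction of age and Nrf2 genotype and 3 for Nrf2-/- against WT adults. Of all genes 1753 of 19890, 4229 of 19890, 1097 of 19555 and 1685 of 18201 were called, in the same order. With outlier-flagged spots left out the members called numbered 5 from E15.5 to P0, 11 from embryonic to postnatal and 14 for Keap1-/- against WT. Of all genes 2646 of 16735, 6079 of 16735 and 4849 of 16298 were called, in the same order. In that setting, from embryonic to postnatal, Col4a1 minus Col1a1 was 0.55 and no longer past the threshold, and Col4a5 minus Col4a1 was 0.0861. With all 27 arrays in 1 fit the members called numbered 15 from E15.5 to P0, 17 from E11.5 to P7, 2 between P0 and P7, and 15 for Keap1-/- against WT and against Nrf2-/-Keap1-/-. Of all genes 5752, 7511 and 926 of 19890, and 5531 and 5501 of 19223 were called, in the same order. With median centring Col4a1 minus Col1a1 from P7 to adult was -0.0924. The causes were not tested.

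Leaving out 1 array at a time gave 5 to 7 members from E15.5 to P0, 6 to 14 from E11.5 to P7, 12 to 22 from embryonic to postnatal, 28 to 32 from WT P7 to adult, 31 to 34 in Nrf2-/- mice, and 16 to 25 and 17 to 21 for Keap1-/- against WT and against Nrf2-/-Keap1-/-. In the same order, the genes called over the whole array numbered 2232 to 3643, 3792 to 6484, 7005 to 8693, 5541 to 7629, 9390 to 10065, 4417 to 6563 and 4366 to 6697. The count of members from E15.5 to P0 was 5 without E15.5 replicate 1 or 2 or P0 replicate 2 or 3, and that from E11.5 to P7 was 6 without E11.5 replicate 1. Leaving out an array moved Col4a1 minus Col1a1 from P7 to adult between -0.0722 and 0.17, and Col4a5 minus Col4a1 from embryonic to postnatal between -0.21 and 0.0843. The other comparisons stayed at 0 members. The correlations of same-numbered deviations ran from -0.43 to 0.61, which does not settle whether replicate numbers pair the arrays. The main fits did not pair them. With the replicate number as a block the counts of members were 11 from E15.5 to P0, 12 from E11.5 to P7, 21 from embryonic to postnatal, 30 and 34 from P7 to adult in WT and Nrf2-/- mice, 22 for Keap1-/- against WT and 21 against Nrf2-/-Keap1-/-, and 0 elsewhere. Of all genes 4148, 6097 and 8268 of 19890, 6667 of 18168, 10446 of 19555, and 6186 and 6161 of 19223 were called, in the same order. Median centring moved the median of all genes by 0.27 from P7 to adult in Nrf2-/- mice, by 0.14 for Keap1-/- against WT and by 0.39 between adult genotypes. The 61 results of named members kept their call in 988 of their values under the alternatives and lost it in 122, most often Col17a1 from embryonic to postnatal and Col4a6 for Keap1-/- against Nrf2-/-Keap1-/-. Dim probes limit the fold changes of several genes, among them Col1a2, Col2a1, Col3a1, Col11a1 and Col14a1.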
